A study of Mus musculus with 4 samples.

Results

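The calcium response of keratinocytes labelled Pla2g2f-/- was read from 2 of the 4 expression arrays in the series, chosen by their labels: cells kept with and without added CaCl2. The gene encodes one of the secreted phospholipases A2, which cut a fatty acid from a phospholipid and leave a lysophospholipid. Skin of newborn C57BL/6 mice was digested with 0.05% collagenase A, and the primary keratinocytes obtained were cultured for 3 days and then held for 48 h with 1 mM CaCl2 or without it. The Pla2g2f-/- sample for each condition was a pool from 6 mice, and so was each Pla2g2f+/+ sample, which serves here as the wild-type setting for the same treatment. The labels do not say which part of the gene was deleted. With 1 array to a group the differences below are descriptions of these cultures, have no replicate check and carry no p-value, and the preparation of the cells cannot be told apart from the genotype. The 2 responses share no array.

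A raised calcium level is the classical switch that moves cultured mouse keratinocytes from growth toward terminal differentiation. Basal cells loosen from the basement membrane, switch on suprabasal keratins and desmosomal cadherins, seal their borders with tight junctions, and finally build the cornified envelope, a protein shell that transglutaminases cross-link and onto which ceramides are bound. Small envelope proteins of the late cornified envelope (Lce) and small proline-rich (Sprr) families lie side by side in the epidermal differentiation cluster, and kallikrein proteases later release the dead cells.

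A level is the log2 of a probe's signal over the 75th percentile of signals on its array, and levels compare 1 gene between arrays and not different genes. A gene was compared when its signal was well above background with or without calcium, and where it was dim on the other array the fold is a lower bound, written "at least". The cultures carried their labelled cell type: Krt5 and Krt14, the keratins of basal keratinocytes, stood at 7.01 and 6.72 and 6.11 and 6.06 without and with calcium, and all 12 keratinocyte markers were well above background on both Pla2g2f-/- arrays. Markers of other skin cells were present too. All 10 mast cell and all 9 adipocyte markers compared were well above background on both Pla2g2f-/- arrays, with summed linear signals of 12 and 11.8, and of 139 and 114, in units of the 75th percentile. In Pla2g2f+/+ cells the mast cell sums were 1.59 and 1.73, and the adipocyte sums 41 and 27.4. Fibroblast markers had larger sums, 273 and 292 in Pla2g2f-/- and 175 and 155 in Pla2g2f+/+ cells. Each sum leans on its brightest probes, such as Fabp4 in the adipocyte list, at 6.34 and 6.02 in Pla2g2f-/- cells. In such mixed cultures fewer cells of a type and less RNA per cell cannot be told apart.

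In Pla2g2f-/- cells calcium went with much higher transcript levels of a limited set of genes of the upper epidermis and with differences under 2-fold in most others. Of 21425 genes compared, 640 (2.99%) were higher by 2-fold or more and 129 (0.602%) lower by as much, together 3.59%, and 205 and 70 of them rest on a lower bound. The asymmetry grew with size: 139 genes were higher and 2 lower by 4-fold or more, and 56 and 0 by 8-fold or more. The median over all genes compared was −0.03, which the scaling of each array to its own 75th percentile largely sets (0.47 with the arrays scaled to basal keratinocyte genes), and 89.97% of them within 1.5-fold. The scanner software's own error of a difference had a median of 0.20 log2, which covers spot and background noise and nothing of the spread between cultures. The lists of genes drawn up for keratinocyte functions held 160 of the 640 higher and 12 of the 129 lower genes, and 16.9% of their 944 compared members reached that size upward. With normexp background correction, which fits the background as a distribution and adds an offset of 50 that shrinks the fold of dim probes, the counts were 318 and 26. Scaling each array to 33 genes of basal keratinocytes, from the basal adhesion and keratinocyte marker lists, gave 2109 and 32. Quantile scaling, which gives all arrays the same distribution, gave 484 and 178.

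**Figure D1:**
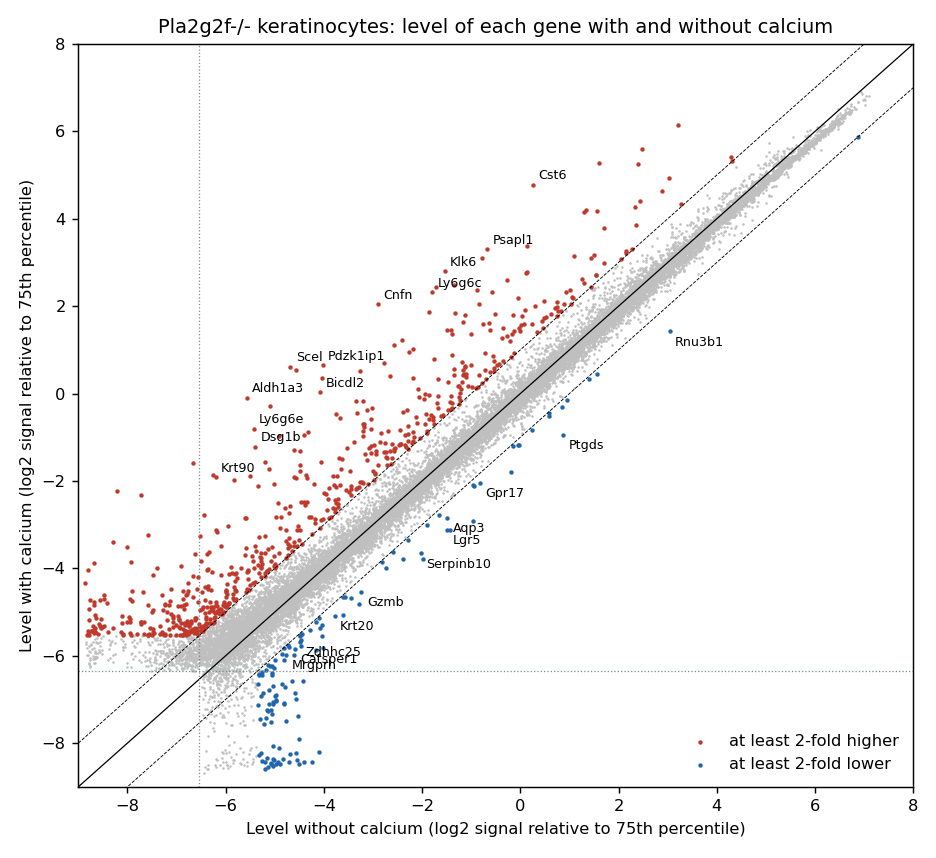
Level of each compared gene in Pla2g2f-/- cells without calcium (x axis) and with calcium (y axis), both as log2 signal over the array's 75th percentile, with 1 array each. Dashed lines mark 2-fold, dotted lines the lowest signal well above background on each array; 640 red points lie above and 129 blue points below, and the red points reach further from the diagonal than the blue ones.

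The largest measured difference was in Aldh1a3, a retinaldehyde dehydrogenase that makes retinoic acid, whose probe lies on chromosome 7 at 73535785 to 73535844 (mm9). Its level was −5.57 without and −0.10 with calcium, a 44.5-fold difference with a scanner error of 0.26 log2. Sciellin (Scel), a precursor of the envelope with its probe on chromosome 14 at 104012445 to 104012504 (mm9), followed at −4.68 without and 0.61 with calcium and 39.2-fold. Beta-defensin 14 (Defb14), an antimicrobial peptide, had levels of −4.56 without and 0.54 with calcium, and cornifelin (Cnfn), another envelope protein, −2.91 without and 2.05 with calcium. Further down the same order stood Pdzk1ip1 (25.6-fold), the Ly6-type proteins Ly6g6e (24.7-fold) and Ly6g6c (17.4-fold), the protease inhibitor Cst6 (23.1-fold), the kallikreins Klk6 (20.1-fold) and Klk7 (17.9-fold), Krt90 (19.5-fold), Bicdl2 (17.2-fold) and the saposin-like Psapl1 (15.7-fold). Each of these was also at least 2-fold higher with calcium in Pla2g2f+/+ cells. Among genes dim without calcium the bounds were largest for Atp6v0a4 (at least 30.9-fold), the small GTPase Rhov (at least 21-fold), Mab21l4 (at least 19.7-fold) and Dsg1a (at least 18.5-fold), followed by Dsc1, Defb4, Teddm3 and Serpinb11.

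Promoter sequences of the genes at both ends of this order are shown because AP-1, the Fos and Jun family of factors, is a known regulator of differentiation genes and its site can be read directly. RefSeq promoter entries (GRCm38.p6, 250 bases before to 50 after the start site, 5′ to 3′ on the gene's strand) were held for 9 of the 15 genes with the largest measured increase and 10 of the 15 with the largest decrease. Capitals mark matches to TGANTCA (the AP-1 consensus) or TATAAA, searched on both strands and not overlapping each other here. The entries lie at chr14:103513091-103513390, plus strand (Scel), chr5:36203771-36204070, plus strand (Psapl1), chr17:35067075-35067374, plus strand (Ly6g6c) and chr2:25469700-25469999, minus strand (Ptgds).
Scel: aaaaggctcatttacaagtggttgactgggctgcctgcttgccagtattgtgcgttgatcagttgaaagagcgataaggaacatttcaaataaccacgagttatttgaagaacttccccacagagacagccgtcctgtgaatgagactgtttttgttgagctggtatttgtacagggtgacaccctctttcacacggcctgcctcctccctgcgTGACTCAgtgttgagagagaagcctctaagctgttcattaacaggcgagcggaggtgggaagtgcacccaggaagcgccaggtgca
Psapl1: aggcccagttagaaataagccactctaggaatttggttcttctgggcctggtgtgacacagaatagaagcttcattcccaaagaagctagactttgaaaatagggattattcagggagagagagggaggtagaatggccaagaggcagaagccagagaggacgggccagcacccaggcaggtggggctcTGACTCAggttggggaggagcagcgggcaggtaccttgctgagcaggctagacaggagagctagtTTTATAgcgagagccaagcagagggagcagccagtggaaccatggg
Ly6g6c: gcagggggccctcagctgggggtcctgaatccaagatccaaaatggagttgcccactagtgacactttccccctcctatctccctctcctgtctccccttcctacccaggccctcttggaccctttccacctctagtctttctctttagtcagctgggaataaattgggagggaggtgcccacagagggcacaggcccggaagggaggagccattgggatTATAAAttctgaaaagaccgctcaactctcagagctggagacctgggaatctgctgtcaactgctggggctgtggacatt
Ptgds: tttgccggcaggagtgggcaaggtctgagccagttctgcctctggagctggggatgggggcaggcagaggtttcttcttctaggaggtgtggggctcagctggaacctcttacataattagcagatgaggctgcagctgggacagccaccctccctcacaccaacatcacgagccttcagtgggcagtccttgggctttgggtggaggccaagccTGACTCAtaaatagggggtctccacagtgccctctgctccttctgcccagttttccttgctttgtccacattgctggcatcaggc
In the sequences above the AP-1 letters begin at −36 in Scel, −61 in Psapl1 and −35 in Ptgds, counted from the start site, and TATAAA begins at −30 in Ly6g6c. Scel and Psapl1 were among the genes with the largest increase, whereas Ptgds had the largest measured decrease, so the same letters stood at both ends. Among the 19 named genes whose entries were used, TGANTCA was found in 2 of 9 higher and 3 of 10 lower genes. Among all 32851 promoter entries 7.81% hold it. That is a share of promoters, over more than the genes compared, so it is no baseline for these counts of genes. Only 394 of the 640 higher genes had a promoter entry, which is under 80%, so a comparison of motif shares between higher genes and the rest is void.

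Among transcription factors that direct differentiation, 6 of 33 were at least 2-fold higher and 0 lower, against 2.99% and 0.602% of all genes. Hopx, a homeodomain protein of suprabasal cells, stood at −0.79 without and 3.11 with calcium (14.9-fold), and the ETS factor Ehf at −4.33 without and −0.89 with calcium (10.9-fold). The grainyhead factors Grhl1 and Grhl3, which control barrier genes, were 6.29-fold and 3.9-fold higher, Zfp750 5.92-fold and Ovol1 4.42-fold. Their relatives Grhl2 and Ovol2 had responses of −0.11 and 0.10, so members of 1 family did not move together. Klf4 and Prdm1, both tied to barrier formation, were at 0.62 and 0.86, and Trp63, the master regulator of the basal state, at −0.36. Of 16 AP-1 and immediate early genes, Egr2 was 9.19-fold higher (levels −2.19 without and 1.01 with calcium) and Egr3 at least 2.23-fold, while Fos (0.24), Fosl2 (0.21), Junb (0.31) and Jun (−0.49) stayed within 2-fold. Egr2 is a Schwann cell gene too, and 5 of the 8 Schwann markers, Egr2 among them, lay above 0, with Mal 7.24-fold higher and Sox10 at −0.38. The summed signal of that list, Egr2 and Mal included, was 17 without and 21.3 with calcium, against 13.9 and 21 in Pla2g2f+/+ cells. The 6 other markers lay within 2-fold in Pla2g2f-/- cells. The part of Schwann cells in the Egr2 value was not tested. Egr3 was under 2-fold with normexp correction and with quantile scaling.

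In Notch signalling a ligand on 1 cell frees the receptor's inner part in its neighbour to act with Rbpj. Its list held 5 calls among 15 compared members, 3 higher and 2 lower, against 3.59% of all genes in either direction. The receptor Notch3 was higher, at −1.47 without and 0.27 with calcium (3.33-fold), and so were the targets Heyl, −4.0 without and −2.27 with calcium (3.3-fold), and Nrarp, −4.61 without and −1.28 with calcium (9.99-fold). The ligand Jag2 was lower, at 0.24 without and −0.83 with calcium (2.09-fold), and Dll4 at least 2.47-fold lower, while Dll1 was at −0.64 and Jag1 at −0.29. Notch1, Notch2 and Rbpj were at −0.40, −0.03 and −0.03, and Hes1 and Hey1, further targets, at −0.09 and 0.60. The median of the list was −0.07 and became 0.43 under scaling to basal keratinocyte genes. The responses of Nrarp, Notch3 and Heyl in Pla2g2f+/+ cells were 1.95, 1.47 and 0.46. Notch3 is also made by pericytes. Of 7 compared smooth muscle and pericyte markers, Notch3 among them, 6 lay above 0, with a median of 0.36. Their summed signal was 44.3 without and 43.8 with calcium, Acta2 being at −0.50, and in Pla2g2f+/+ cells 26.1 and 33.1. The part of these cells in the Notch3 value was not tested. With that scaling Jag2 was under 2-fold lower, as was Dll4, which was also under 2-fold with normexp correction.

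Keratins of the upper layers differed from one another. Of 11 compared basal and suprabasal keratins 4 were higher and 1 lower by at least 2-fold, and of 9 activation, mucosal and follicle keratins 3 were higher. Krt78, Krt23 and Krt80 were 6.5-fold, 3.81-fold and 2.93-fold higher, and the activation keratin Krt16 8.76-fold (2.47 without and 5.61 with calcium). Krt79 and Krt90 were 9.02-fold and 19.5-fold higher. In the early suprabasal pair Krt10 stood at −2.07 without and −1.87 with calcium, a response of 0.20, and Krt1, not well above background without calcium, was at least 2.16-fold higher. Krt6a, Krt6b and Krt17, keratins of wounded epidermis, had responses of 0.67, 0.63 and −0.12. The simple epithelial pair Krt8 and Krt18 was 2.63-fold and 2.55-fold higher, and their relative Krt20 2.47-fold lower. All 3 are Merkel cell keratins too, and the Merkel cell factor Sox2 was at −0.53. Krt15, a keratin of basal and follicle stem cells, was 2.11-fold lower. With normexp correction Krt1, Krt15 and Krt20 were within 2-fold, as were Krt1 with quantile scaling and Krt15 and Krt20 with scaling to basal keratinocyte genes.

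Among desmosome genes, whose proteins rivet keratinocytes together, 6 of 16 compared were at least 2-fold higher, and all 6 were cadherins. The suprabasal desmogleins Dsg1a (at least 18.5-fold), Dsg1b (18.2-fold) and Dsg1c (4.36-fold) and all 3 desmocollins, Dsc1 (at least 12.6-fold), Dsc2 (3.04-fold) and Dsc3 (2.39-fold), were higher. Dsg1b stood at −5.41 without and −1.22 with calcium, and Dsg1a, not well above background without calcium, had levels of −7.72 and −2.33. The basal cadherins Dsg2 and Cdh3 were at −0.56 and −0.56, and Dsg3, found in basal and lower suprabasal cells, was at 0.45. The plaque proteins stayed within 2-fold, with plakoglobin (Jup) at 0.89, desmoplakin (Dsp) at 0.40 and plakophilin 1 (Pkp1) at 0.43. Of the 10 genes compared in the 1 Mb stretch that holds this cadherin cluster, 6 were at least 2-fold higher, the largest share of the 778 such stretches with at least 10 compared genes. The Dsg1 paralogues are close in sequence, and probes of such genes may share transcripts.

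Tight junction genes were higher across much of the list. Of 19 compared, 9 were higher and 0 lower by at least 2-fold, and the median was 0.94. Claudin 3 (Cldn3) stood at −0.52 without and 1.81 with calcium (5.04-fold), and occludin (Ocln), Cldn7, Cldn1 and cingulin (Cgn) were 3.07-fold, 3.08-fold, 2.33-fold and 2.37-fold higher. The polarity protein gene Crb3 was 2.6-fold and the scaffold gene Tjp3 2.56-fold higher, with Tjp1 at 0.62. The median in Pla2g2f+/+ cells was 0.98, and 10 of 19 members had the larger response in Pla2g2f-/- cells. Cldn23 and Tjp3 were under 2-fold with normexp correction. Among gap junction genes Gjb2 (connexin 26) was 8.26-fold and Gjb6 at least 3.33-fold higher, and the other 8 compared lay within 2-fold. Gjb6 was also under 2-fold with normexp correction.

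**Figure D2:**
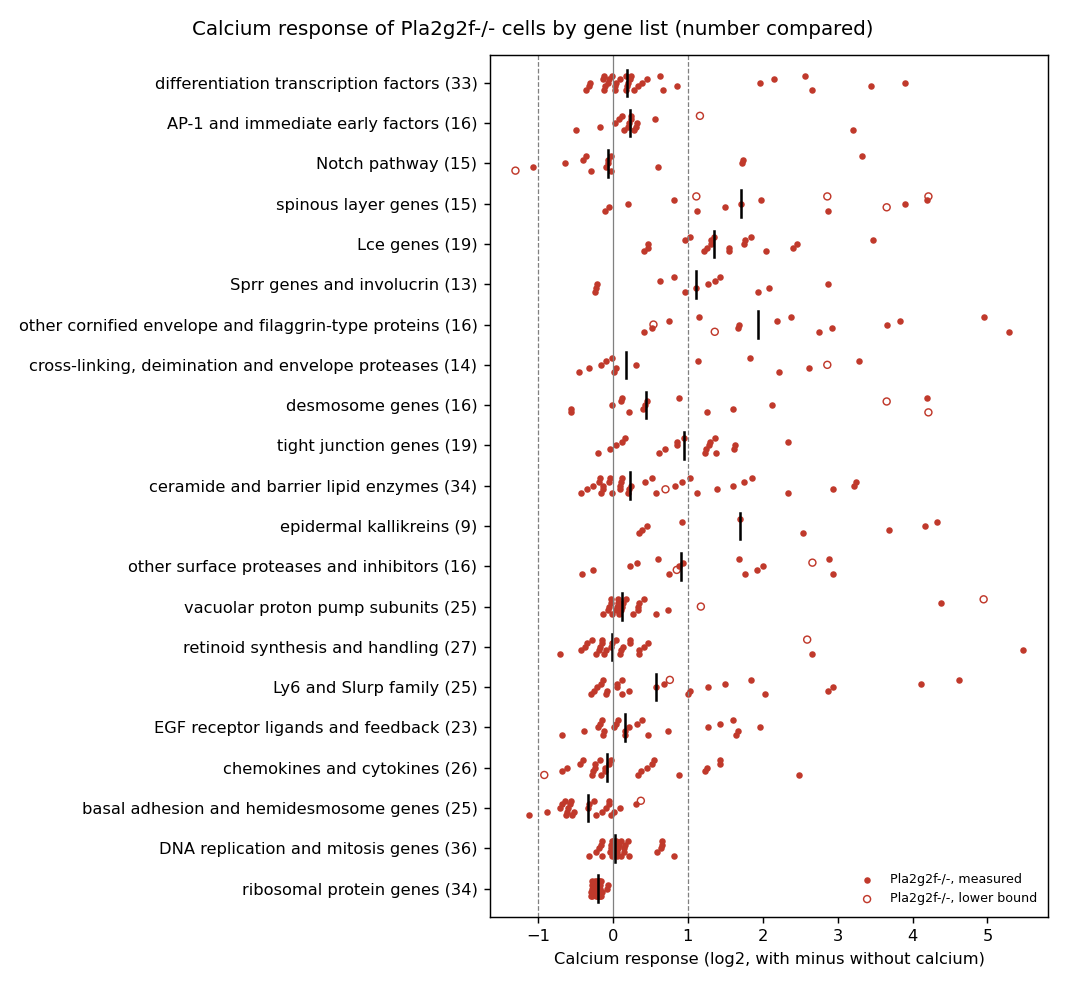
Calcium response of Pla2g2f-/- cells (x axis, log2, level with minus level without calcium) for each compared gene of 21 lists, with the number compared in brackets. Filled points are measured on both arrays, open points are lower bounds, black bars are list medians and dashed lines mark 2-fold; most kallikrein, spinous layer and cornified envelope genes lie right of the 2-fold line, whereas all 34 ribosomal protein genes lie just left of 0.

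Cornified envelope genes were higher in each family, and the families differed in size. Of 16 compared envelope and filaggrin-type genes outside the Lce and Sprr families, 12 were higher by at least 2-fold, and the median was 1.94. Corneodesmosin (Cdsn), which glues corneocytes, stood at 1.61 without and 5.27 with calcium, Crct1 at 3.22 without and 6.14 with calcium and loricrin (Lor), a bulk envelope protein, at −1.01 without and 1.36 with calcium. Envoplakin (Evpl) and periplakin (Ppl), which start the envelope, were 3.2-fold and 3.19-fold higher, and Cysrt1 and Trex2 14.2-fold and 6.74-fold. Among cross-linking enzymes Tgm1 stood at −3.75 without and −0.47 with calcium (9.7-fold) and Tgm5 was at least 7.27-fold higher, whereas Tgm3 and Tgm2 were at 0.01 and −0.16. The proteases Asprv1 and Casp14, which process filaggrin, were 6.13-fold and 4.66-fold higher. In the spinous list 11 of 15 compared genes were at least 2-fold higher, including Krtdap (7.31-fold), Sbsn (3.92-fold) and the calmodulin-like Calm4 (3.28-fold).

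All 19 Lce genes lay above 0 in Pla2g2f-/- cells and 15 did so by at least 2-fold, with a median of 1.35 (2.56-fold). Lce1m, with its probe on chromosome 3 at 92821829 to 92821888 (mm9), stood at −2.78 without and 0.69 with calcium and had the largest response, 3.47. The lowest was Lce1l, at −5.05 without and −4.64 with calcium. In Pla2g2f+/+ cells the median was 4.29 and all 19 were at least 2-fold higher, and in each of the 18 genes well above background on all 4 arrays the Pla2g2f-/- response was the smaller. The starting levels differed as well as the end points: 15 of 19 Lce genes were higher in Pla2g2f-/- than in Pla2g2f+/+ cells without calcium, by a median of 0.83, and all 19 were lower with calcium, by a median of −1.42. Lce1d shows this, with −1.44 and −0.19 in Pla2g2f-/- and −3.1 and 1.75 in Pla2g2f+/+ cells without and with calcium. Lce3e and Lce3f were under 2-fold with normexp correction, and Lce3e with quantile scaling too.

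Sprr genes differed from Lce genes in their starting point. Of 13 compared Sprr genes and involucrin, 7 were higher by at least 2-fold, and the median was 1.11 against 2.04 in Pla2g2f+/+ cells. Without calcium 11 of 13 were lower in Pla2g2f-/- than in Pla2g2f+/+ cells, by a median of −0.77, and with calcium 12 of 13 were lower, by −2.1. Sprr1a stood at 2.39 without and 5.26 with calcium (7.29-fold) and Sprr1b and Sprr2h were 4.22-fold and 3.83-fold higher. Sprr2k was at −0.22, although its response in Pla2g2f+/+ cells was 2.04, and involucrin (Ivl) was at 0.81. The cluster's S100 genes on the far side of Sprr2a2, such as S100a8 and S100a9, were left out of the following count. That count does not hold every compared gene of the region. Between 92 and 93 Mb (mm9) on chromosome 3, 45 genes were compared, 24 of them higher in Pla2g2f-/- and 34 in Pla2g2f+/+ cells. Of the 41 genes counted from Sprr2a2 to S100a10, along 1308 kb, 26 were at least 2-fold higher in Pla2g2f-/- and 32 in Pla2g2f+/+ cells. The gap between genotypes varied along this stretch. Crct1 and Lce1m were at 2.92 and 3.47 against 3.45 and 4.29, and Sprr2h and Sprr1b at 1.94 and 2.08 against 1.78 and 2.47. S100a10 and S100a11 at its end stayed within 2-fold. Within the Lce family and within the Sprr family many genes are close paralogues, so their probes may share transcripts and they are not independent measurements.

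**Figure D3:**
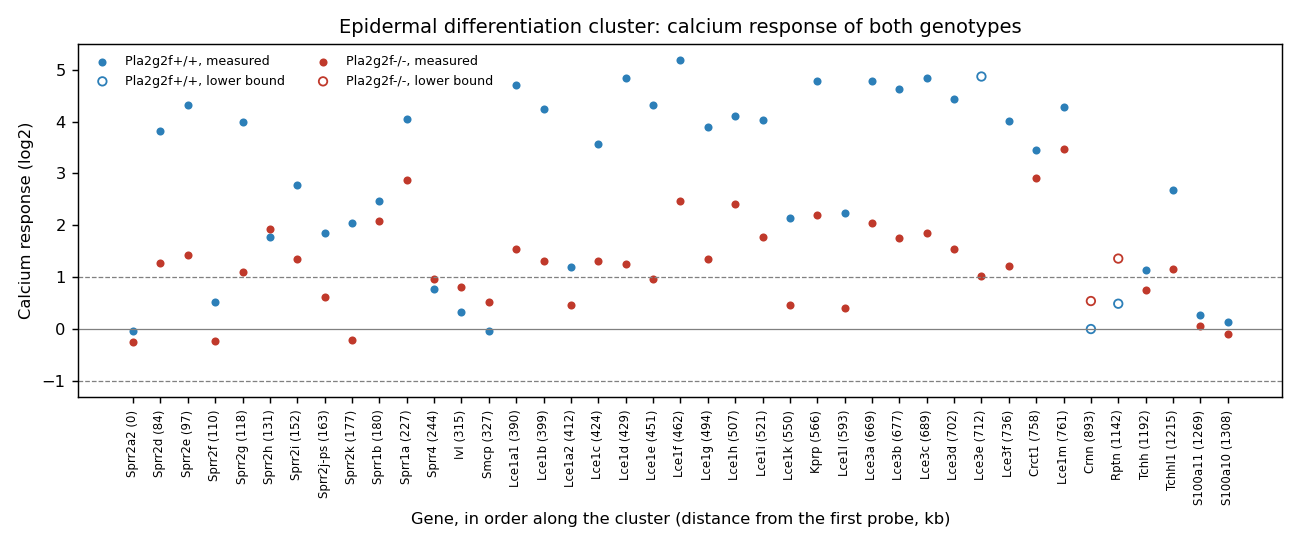
Calcium response (y axis, log2) of 41 compared genes of the epidermal differentiation cluster, from Sprr2a2 to S100a10. They stand in order along the chromosome, with the distance from the first probe in kb in brackets. Red marks Pla2g2f-/- and blue Pla2g2f+/+ cells (1 array per condition), open symbols are lower bounds and dashed lines mark 2-fold; the red points of the Lce genes lie below the blue ones, by distances that vary from gene to gene.

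**Figure D4:**
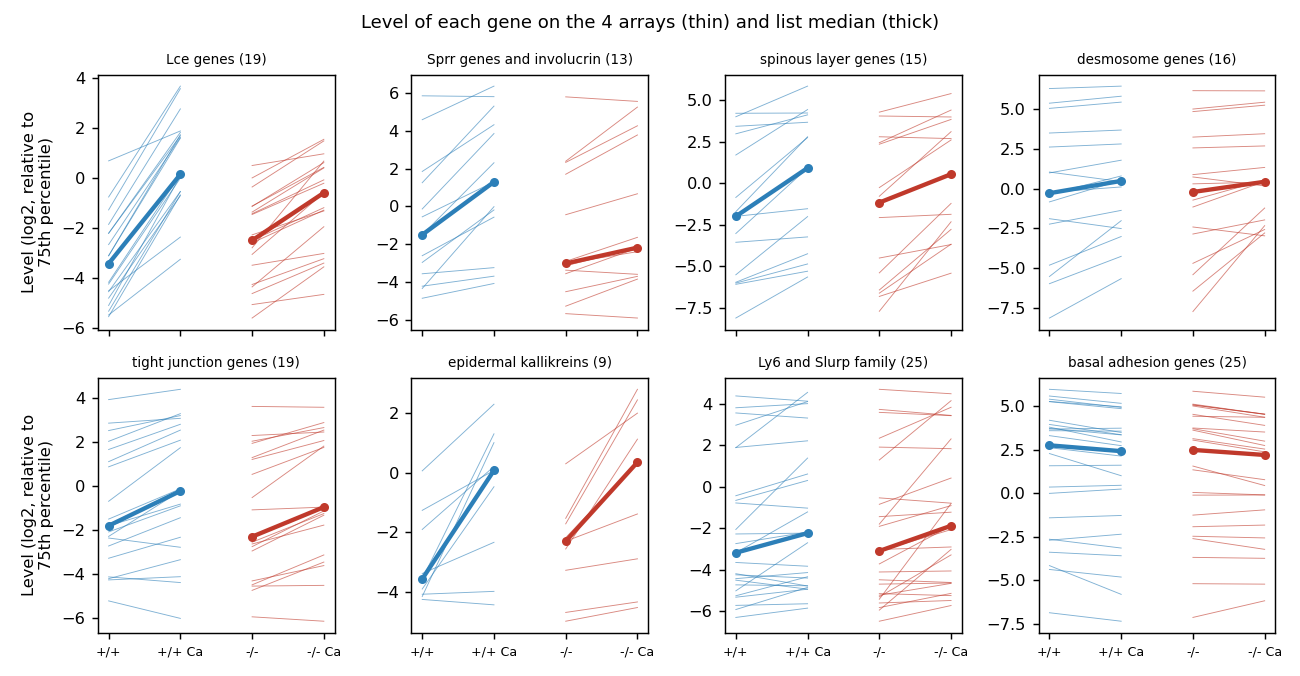
Level of each gene compared in Pla2g2f-/- cells (thin lines, log2 signal relative to the 75th percentile) and list median (thick lines) without and with calcium, Pla2g2f+/+ in blue and Pla2g2f-/- in red, for 8 lists with the number of genes in brackets. Lce genes start higher and end lower in Pla2g2f-/- cells, Sprr genes start and end lower, and basal adhesion genes slope down slightly in both genotypes.

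Enzymes that make the barrier lipids were higher in part. Of 34 compared genes 10 were at least 2-fold higher and 0 lower, with a median of 0.23. They include the enzymes of the skin's very long acylceramides: Elovl4, which elongates very long fatty acids, was 7.68-fold higher, Cers3, which joins them into ceramide, 2.17-fold, the hydroxylase Cyp4f39 5.05-fold, and the lipid transporter Abca12 3.03-fold. The cholesterol sulfotransferase Sult2b1 stood at 0.13 without and 3.37 with calcium (9.46-fold) and the lipase Lipm was 9.34-fold higher. The housekeeping relatives Cers2, Cers5 and Cers6 were at −0.14, −0.27 and −0.34, and Elovl1 at −0.05. The 12R-lipoxygenase Alox12b was at 0.19 and its partner Aloxe3 at 0.93. All 28 cholesterol synthesis and uptake genes stayed within 2-fold, a size that 3.59% of all genes compared reached in either direction.

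Surface proteases and their inhibitors included many higher genes. Of 9 compared epidermal kallikreins 5 were at least 2-fold higher, all 9 lay above 0, and the median was 1.7. Klk6 stood at −1.54 without and 2.79 with calcium, Klk7 at −1.72 without and 2.44 with calcium and Klk5, which activates other kallikreins, at −2.57 without and 1.12 with calcium. Klk10 and Klk8 were 5.79-fold and 3.25-fold higher. The inhibitor of kallikreins Spink5 was 7.37-fold higher, at 1.33 without and 4.21 with calcium. Of 16 other surface proteases and inhibitors 7 were at least 2-fold higher, among them Tmprss11e 7.66-fold, Prss8 4.0-fold and Tmprss13 3.38-fold, while matriptase (St14) was at 0.32. Among clade B serpins, intracellular protease inhibitors, Serpinb7 (14.5-fold), Serpinb11 (at least 8.2-fold) and Serpinb2 (2.01-fold) were higher and Serpinb10 3.09-fold lower. Of 20 cathepsins and cystatins only Cst6 differed by 2-fold, at 0.26 without and 4.78 with calcium.

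Of 25 compared subunits of the vacuolar proton pump, which acidifies compartments, 3 were at least 2-fold higher and 0 lower. Among all genes compared 2.99% were higher and 0.602% lower. Atp6v1c2 stood at −4.03 without and 0.36 with calcium (20.9-fold), Atp6v0a4 was at least 30.9-fold higher (levels −6.67 without and −1.59 with calcium) and Atp6v1g3 at least 2.25-fold. These are tissue-restricted forms, and the widespread forms stayed within 2-fold, with Atp6v1c1 at −0.03, Atp6v0a1 at 0.34 and Atp6v1g1 at 0.07. The response of Atp6v1c2 in Pla2g2f+/+ cells was 2.85, and Atp6v0a4 was at least 4.24-fold higher there. Atp6v1g3 was under 2-fold with normexp correction and with quantile scaling.

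Of 27 compared retinoid genes 3 were at least 2-fold higher, against 2.99% of all genes. Next to Aldh1a3, the retinoic acid binding protein Crabp2 stood at 0.11 without and 2.77 with calcium (6.31-fold) and the retinol dehydrogenase Sdr16c5 was at least 6.03-fold higher. In Pla2g2f+/+ cells Crabp2 was at 0.92 and 1.79, a response of 0.87. The other 24 stayed within 2-fold, including the retinoic acid hydroxylase Cyp26b1 (−0.43) and the receptors Rara (−0.28), Rarg (−0.02) and Rxra (0.22).

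Of 28 compared calcium genes 3 were higher and 0 lower by at least 2-fold, and of 25 ion and water transport genes 5 were higher and 2 lower. The shares among all genes compared were 2.99% higher and 0.602% lower. The calcium channel Trpv6 was 2.36-fold higher and the secretory pathway calcium pump Atp2c2 2.64-fold (levels −4.7 without and −3.3 with calcium), while Atp2c2 had a response of −0.02 in Pla2g2f+/+ cells. The ubiquitous relative Atp2c1 was at −0.10. The epithelial sodium channel subunits Scnn1a and Scnn1b were 6.46-fold and 3.82-fold higher, and Slc6a14, which carries amino acids, at least 4.61-fold. The glycerol and water channel Aqp3, a basal and spinous layer protein, was 2.56-fold lower, at −1.49 without and −2.85 with calcium, and Clca2 2.36-fold lower. Clca2 was under 2-fold with normexp correction, and both were under 2-fold lower with scaling to basal keratinocyte genes.

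Small surface proteins of the Ly6 family and antimicrobial genes included some of the largest responses. Of 25 compared Ly6 and Slurp genes 10 were higher and 0 lower by at least 2-fold. Ly6g6e stood at −5.43 without and −0.81 with calcium, Ly6g6c at −1.8 without and 2.32 with calcium and Ly6d at 1.3 without and 4.16 with calcium, and Slurp1, a secreted member, was 7.64-fold higher. Of 16 antimicrobial genes 7 were at least 2-fold higher, among them Defb4 (at least 8.76-fold), the peptidoglycan receptor Pglyrp3 (6.19-fold) and Defb1 (2.26-fold). The lectins Reg1 and Reg3g were 7.52-fold and 2.2-fold higher, and their responses in Pla2g2f+/+ cells were −0.01 and −0.93. Reg1 stood at −0.85 without and 2.06 with calcium in Pla2g2f-/- cells. Reg3g was under 2-fold with normexp correction. The serum amyloids Saa1 and Saa3 and lipocalin 2 (Lcn2) were at 0.09, 0.10 and 0.25.

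Among signals to neighbouring cells, growth factors and a few cytokines were higher, 6 of 23 genes in the EGF receptor list. The EGF receptor ligands Areg (3.89-fold), Btc (3.18-fold), Ereg (3.04-fold) and Tgfa (2.41-fold) were higher, as were the phosphatases Dusp4 (3.11-fold) and Dusp5 (2.7-fold) that damp ERK signalling, while Hbegf and Epgn were at 0.33 and 0.38. Areg stood at −4.7 without and −2.74 with calcium, and its response in Pla2g2f+/+ cells was 0.72. Btc and Tgfa were under 2-fold with normexp correction. The epithelial cytokine Tslp was 5.61-fold higher, at −4.36 without and −1.87 with calcium, and Il18 5.65-fold, at −3.19 without and −0.69 with calcium. Of 26 compared chemokines and cytokines 5 were at least 2-fold higher, and these were Tslp, Il6 (2.35-fold) and the chemokines Ccl3 (2.38-fold), Ccl4 (2.7-fold) and Ccl9 (2.68-fold). The keratinocyte chemokines Cxcl1 and Cxcl5 were at −0.44 and −0.40. Of 13 interleukin-1 family genes Il18 and Il1f5, a receptor antagonist, were at least 2-fold higher (2.96-fold for the latter). Il6 was under 2-fold with normexp correction.

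Ccl3, Ccl4 and Ccl9 are also made by myeloid cells, and some myeloid markers were higher alongside them. Ccl3 stood at −1.78 without and −0.53 with calcium in Pla2g2f-/- and at −3.91 and −5.56 in Pla2g2f+/+ cells, so that the genotypes lay on opposite sides of 0. Of 17 compared Langerhans and myeloid markers 3 were at least 2-fold higher in Pla2g2f-/- cells (Itgax, at least 3.79-fold; Marco, 2.91-fold; Mrc1, 2.36-fold), 11 lay above 0, and the list's median was 0.55. Their summed signal over 18 genes was 26 without and 38.4 with calcium, against 9.04 and 8.18 in Pla2g2f+/+ cells. The complement genes C1qa, C1qb and C1qc were at 0.99, 0.85 and 0.70, while Ptprc, the pan-leukocyte marker, was at 0.25 and Itgam at −0.59. The part of myeloid cells in the chemokine values was not tested. Itgax was under 2-fold with normexp correction.

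Among genes of the deleted enzyme's family and of lipid mediators, differences lay in eicosanoid enzymes. Pla2g2f itself had levels of −3.78 without and −3.53 with calcium, and since its deleted part is not given this probe checks nothing about the labels. None of the 17 compared phospholipase A2 genes reached 2-fold in Pla2g2f-/- cells, with Pla2g2e at 0.01 and Pla2g4a at 0.10. Of 33 eicosanoid genes 3 were at least 2-fold higher and 1 lower, against 3.59% of all genes in either direction. Among the higher ones were Ptgr1 and Hpgd, which inactivate prostaglandins and leukotriene B4, at −0.05 without and 2.18 with calcium (4.67-fold) and at −2.83 without and −0.90 with calcium (3.82-fold), along with the thromboxane synthase Tbxas1 (2.38-fold). Tbxas1 is a myeloid gene too, and the myeloid sums above apply to it. Ptgds, which makes prostaglandin D2, was 3.53-fold lower, at 0.87 without and −0.95 with calcium. The lysophosphatidic acid producing Liph was at least 3.21-fold higher, under 2-fold with normexp correction, and the other 9 compared genes of that pathway lay within 2-fold.

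Of 25 basal adhesion and hemidesmosome genes 21 lay below 0 and 1 was at least 2-fold lower, with a median of −0.34. Scaling to basal keratinocyte genes gave 0.16, but the scaling genes come in part from this list, so that scaling cannot check its median. The laminin receptor Itga3 stood at 1.56 without and 0.44 with calcium (2.17-fold), and Col17a1, Lamb3 and Itgb4 were at −0.88, −0.71 and −0.65. Of 34 compared hair follicle stem cell, Wnt and hedgehog genes 2 were lower and 1 higher, against 0.602% and 2.99% of all genes. The receptor Lgr5 was 3.06-fold lower, at −1.5 without and −3.11 with calcium, and Wnt3 2.06-fold, whereas the ligand Wnt7b was 2.73-fold higher. Of 36 DNA replication and mitosis genes 0 reached 2-fold in either direction, against 3.59% of all genes compared. Their median was 0.02 (0.00 with quantile scaling, 0.52 with scaling to basal keratinocyte genes), against −0.28 in Pla2g2f+/+ cells. The MYC antagonist Mxd1 was 5.13-fold higher, at −0.77 without and 1.59 with calcium, while the inhibitors Cdkn1a and Cdkn1b were at 0.17 and −0.15 and Myc at −0.24. All 34 ribosomal protein genes lay below 0, with a median of −0.21 that became −0.03 with quantile scaling and 0.29 with scaling to basal keratinocyte genes. Itga3, itself a scaling gene, and Wnt3 were under 2-fold lower with that scaling, and Wnt3 also with normexp correction.

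The genes lower by the most were few and of mixed function. After Ptgds came the glutathione transferase Gsta2, at −1.99 without and −3.79 with calcium (3.48-fold), the natriuretic peptide receptor Npr3 (3.28-fold), Serpinb10, the small RNA Rnu3b1 (3.08-fold), Lgr5, the melanosome receptor Gpr143 (2.89-fold), Aqp3, Krt20, granzyme B (Gzmb, 2.46-fold), Catsper1, Clca2, Gpr17, Mrgprh and Zdhhc25. Npr3 stood at −4.16 without and −5.87 with calcium and Gzmb at −3.24 without and −4.54 with calcium. Bounds were led by the muscle myosin Myh4 (at least 4.33-fold), opposite to the muscle markers below, Slc25a2 (at least 3.83-fold), Alkbh3os1, Slc44a5, Nim1k, Dnajb13, Prr23a1 and Trhde. Each of these 8 was well above background only on the Pla2g2f-/- array without calcium, so these bounds rest on 1 array. Myh4 was at −4.24 there, and at −7.52 without and −8.32 with calcium in Pla2g2f+/+ cells. With normexp correction Npr3, Gzmb, Catsper1, Mrgprh, Zdhhc25, Slc25a2, Alkbh3os1, Slc44a5, Nim1k, Dnajb13, Prr23a1 and Trhde were under 2-fold lower, and with scaling to basal keratinocyte genes Aqp3, Krt20, Gzmb, Catsper1, Clca2, Gpr17, Mrgprh and Zdhhc25 were. Gpr143 is a melanocyte marker, and 8 of the 9 on that list, itself included, lay below 0, with a median of −0.46 (0.04 with scaling to basal keratinocyte genes) and summed signals of 41.7 without and 32.3 with calcium. In Pla2g2f+/+ cells the median was 0.11 and the melanocyte sums were 41 and 45.8.

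Markers of other cell types differed from list to list. All 10 compared skeletal muscle markers lay above 0 in Pla2g2f-/- cells and 4 were at least 2-fold higher, with Myh3, an embryonic myosin, at −2.05 without and −0.09 with calcium (3.91-fold) and a summed signal of 2.94 without and 5.03 with calcium. In Pla2g2f+/+ cells the response of Myh3 was 1.94. Of the Schwann list 2 of 8 compared were at least 2-fold higher, of the hair shaft list 2 of 11, and of the Merkel cell list 2 of 7 with 1 lower. None of 17 fibroblast, 10 mast cell, 9 adipocyte, 10 endothelial or 7 T cell markers compared reached 2-fold in either direction in Pla2g2f-/- cells. Over all genes compared 3.59% did, so lists of this size would hold few calls in any case. The fibroblast sums were 273 and 292, against 175 and 155 in Pla2g2f+/+ cells. The keratinocyte sums were 446 and 436, against 560 and 613.

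**Figure D5:**
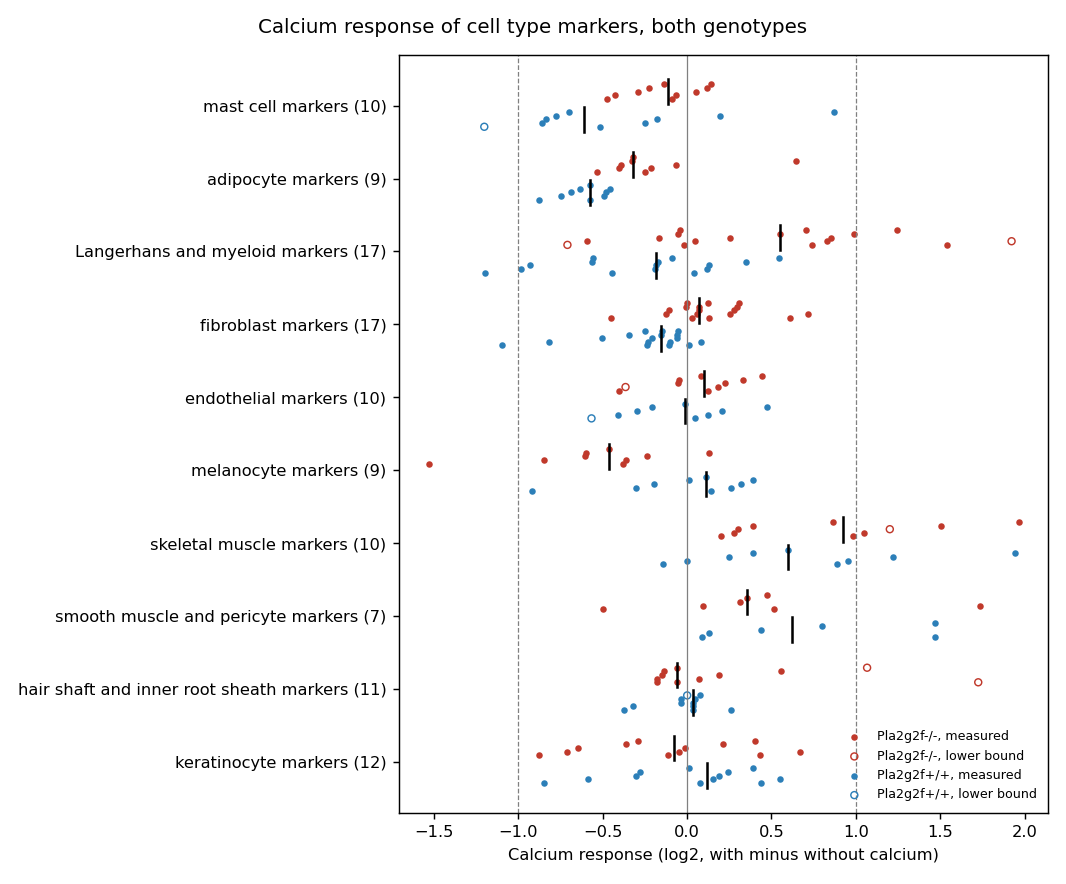
Calcium response (x axis, log2) of the markers of 10 cell types in Pla2g2f-/- (red) and Pla2g2f+/+ (blue) cells, 1 array per condition, with the number compared in Pla2g2f-/- cells in brackets. Filled points are measured, open points are lower bounds, black bars are medians and dashed lines mark 2-fold; in Pla2g2f-/- cells 11 of 17 myeloid markers lie right of 0 and 8 of 9 melanocyte markers left of it.

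The calls of the genotypes overlapped in part. Of the 520 higher genes that could be compared in Pla2g2f+/+ cells, 289 (55.6%) were higher by 2-fold or more there too, which is 61.5% of the 470 such Pla2g2f+/+ genes, and 10 were lower by as much. The background in Pla2g2f+/+ cells was 2.47% higher and 1.01% lower. Of the 78 lower genes that could be compared, 18 (23.1%) were also lower in Pla2g2f+/+ cells, 10.8% of the 166 such genes there, and 1 was higher by 2-fold or more. The response in Pla2g2f+/+ cells had the same sign in 421 of the 520 higher and 62 of the 78 lower genes. In 45 of the 384 higher genes well above background on all 4 arrays the Pla2g2f+/+ response was 0 or below.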

How the data were processed

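Total RNA (200 ng, per the labels' protocols) of 4 keratinocyte cultures was labelled with Cy3 and hybridised to 1-colour Agilent mouse arrays. The deposited scanner files hold each spot's processed signal as an intensity that the authors' scanner software had background-subtracted and corrected, per the file headers, on mm9. The authors' deposited value table holds a linear ratio, which equals the signal over the array's 75th percentile, and served as an alternative. That percentile was 2638 to 3299 over the 4 arrays, 67.0% to 68.6% of 39426 probes were well above background, 105 to 116 spots per array were outliers and left out, and none was saturated.

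Spots of a probe were averaged, each array was divided by its 75th percentile over non-control spots, and a gene was read from its brightest probe. Genes entered a comparison if either of its arrays showed them well above background. On a dim array the bound used the higher of the probe's own signal and the lowest signal well above background. Sequence of promoters came from RefSeq. Python 3.11.15, numpy 2.4.6, pandas 2.3.3, matplotlib 3.10.9, R 4.3.3 and limma 3.58.1 were used, and the steps were tested on simulated data.

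The comparison and the 60 gene lists (1233 entries) were chosen with earlier results of these data known. Lce1j, Lce6a, Sprr2a3, Flg, Xp32, Ly6c2, Gsta1 and Col1a1 are not analysed here. Genes were named from these lists and, in each direction, as the 15 largest measured differences and 8 largest bounds among genes whose probes agreed in sign and whose names are not those of clones or models. Alternatives, 10 in all with 1 added later, covered the background correction, the scaling, the probe rule, the filter and the threshold. Dates of scanning were not used.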

Additional observations from a re-analysis of the deposited data

Results flagged for a closer look

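In 5 named genes the calcium response was at least 1.5-fold upward in Pla2g2f-/- and at least 1.5-fold downward in Pla2g2f+/+ cells, or the reverse, with 1 array per condition, and the difference was not tested. The gap (Pla2g2f-/- minus Pla2g2f+/+, log2) was 2.90 for Ccl3, 2.43 for Ccl6, 2.12 for Ccl9 and 1.76 for Adgre1, a macrophage marker. The response of Ccl6, another myeloid chemokine, was 0.88 in Pla2g2f-/- and −1.55 in Pla2g2f+/+ cells, and that of Adgre1 0.83 and −0.93. For Reg3g, an antimicrobial lectin, the gap was 2.07. In each of the 5 the Pla2g2f-/- response was the upward one.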

How the results depend on the processing

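The 2-fold counts of 640 higher and 129 lower genes became 318 and 26 with normexp background correction, 251 and 24 at 3-fold, and 1919 and 447 with no filter and no bounds. Requiring both arrays well above background gave 59 lower genes and 435 higher ones. Quantile scaling gave 484 and 178, a share of higher among all calls of 73.1% against 83.2%. Scaling to 33 basal keratinocyte genes moved the median of all genes from −0.03 to 0.47, a shift of 0.50, and gave 2109 higher and 32 lower genes (98.5% higher). A second reading of that choice, by the median of their responses, was added after the first reading's counts were seen and gave 1194 and 57 (95.4%) with a shift of 0.29. Of the 204 named calls, 158 stayed past 2-fold with normexp correction, 191 with scaling to basal keratinocyte genes, 193 with quantile scaling, 201 with the mean of a gene's probes and 204 with the authors' value table, and 0 turned direction. The cause was not tested. No paired analysis was possible because each group is 1 array. Signals near background limit what the dim genes can show, and these carry bounds.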

Other observations

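Since 3.59% of all genes compared reached 2-fold in Pla2g2f-/- cells, lists of this size would hold few calls in any case. None of 22 compared unfolded protein and integrated stress response genes, 27 lysosome and autophagy genes, 30 interferon-stimulated genes, 30 fatty acid synthesis and PPAR target genes or 14 S100 proteins reached it in either direction. The interferon-stimulated genes had a median of −0.26 in Pla2g2f-/- cells (0.24 with scaling to basal keratinocyte genes) and −0.23 in Pla2g2f+/+ cells. The S100 proteins S100a8 and S100a9, known from stressed epidermis, were at 0.09 and 0.26. Among hypoxia and glycolysis genes Ankrd37 was the sole call, at −3.9 without and −2.85 with calcium (2.08-fold), and the median was 0.03.

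Matrix remodelling genes held 3 calls among 20 compared, all higher, against 2.99% higher among all genes. The metalloproteinase inhibitor Timp3 stood at 2.88 without and 4.64 with calcium (3.38-fold), with a response of 1.71 in Pla2g2f+/+ cells. The gelatinase Mmp9 and the collagenase Mmp13 were 2.46-fold and 2.28-fold higher, with responses of 0.35 and 0.57 in Pla2g2f+/+ cells.

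Of 778 stretches of 1 Mb with at least 10 compared genes, 505 held no higher gene. On chromosome 3, between 92 and 93 Mb (mm9), 24 of 45 compared genes were at least 2-fold higher.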
